A study of Homo sapiens with 9 samples.

Results

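The genes described here are 49 human genes of DNA replication and S phase, followed in the RNA of HEK293 Flp-In T-REx cells after depletion of TTC33 or of CCDC97. They were chosen by gene symbol from a list of replication genes, and all 49 were found among the 60664 genes of the count tables and among the 18299 genes tested. HEK293 Flp-In T-REx is an established human embryonic kidney line in which a single inserted transgene can be switched on with tetracycline. There were 3 groups of 3 libraries each. In the TTC33 knock-down a microRNA against TTC33 was expressed from a tetracycline-inducible promoter. In the CCDC97 knock-down a microRNA against CCDC97 was expressed from such a promoter, and the controls had no microRNA. Cells of every group received tetracycline (100 ng/ml, 3 days) and were seeded so that they reached confluence when the treatment ended. The question was how the loss of either protein changes gene expression. The control carries no microRNA at all, so the effect of expressing any microRNA cannot be told apart from that of losing the target. The labels do not say that the replicates of a group are separate cultures, so the p-values cover only the spread between the libraries at hand, and that spread may be technical.

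Replication begins with licensing in G1, when the origin recognition complex, CDC6 and CDT1 load the MCM2 to MCM7 helicase onto DNA as an inactive double ring. At the start of S phase kinases, together with DONSON and other factors, bring CDC45 and the GINS complex to that ring. The helicase, which needs MCM10 to start, then unwinds the template for the primase and the polymerases. E2F transcription factors switch on many of these genes late in G1, so that the RNAs of the group tend to rise and fall with the share of cells that enter S phase. HEK293 cells carry adenoviral genes that release E2F from the retinoblastoma protein, and they cycle rapidly. In bulk RNA, fewer cells in S phase and less RNA of a gene in each such cell cannot be told apart.

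Gene counts per library summed to between 21764203 and 36110891. Both microRNAs lowered their targets. TTC33 had 9.67, 6.41 and 6.16 CPM (counts per 1000000, of TMM-scaled library totals) in the TTC33 knock-down and 37.7, 37.1 and 38.6 CPM in controls. CCDC97 had 15.8, 15.3 and 15.7 CPM in the CCDC97 knock-down and 60.6, 60.1 and 59.5 CPM in controls. In the TTC33 knock-down CCDC97 was higher than in controls, with 65.1, 81.3 and 95.8 CPM (log2 fold change 0.43, edgeR adjusted p = 0.0371). TTC33 had 30.0, 52.5 and 47.0 CPM in the CCDC97 knock-down (0.19, edgeR adjusted p = 0.632). Of 10 markers of the line, 9 had at least 2.64 CPM in every library, with VIM highest at 587 to 819 CPM, and NEFM had 0.608 to 1.12 CPM. The 10 markers of blood, liver and endothelium stayed at or below 1.04 CPM and HBB at 0 in every library. Of 4 fibroblast markers, COL1A1 had 5.95 to 9.81 CPM and COL3A1 2.86 to 7.74 CPM, while DCN had at most 0.193 and LUM at most 1.09 CPM. The 4 summed to 10.8 to 14.1 CPM in the TTC33 knock-down, 12.7 to 15.9 CPM in the CCDC97 knock-down and 11.1 to 12.1 CPM in controls. COL3A1 averaged 3.32, 7.16 and 3.31 CPM in that order of groups, and its part in the results was not tested. In both knock-downs, replicate 1 differed from replicates 2 and 3 in how expression followed the GC content of the genes. The numbers of called genes, among the 49 and among the further genes of the pathway, are therefore also given without them, an alternative added after the data were seen.

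E2F factors bind motifs rich in G and C, and many S phase promoters also carry CCAAT boxes, which bind the factor NF-Y. RefSeq promoters (GRCh38.p14, 250 bases before to 50 bases after the gene's start) were at hand for 41 of the 49 genes; RPA3, MCM5, RPA2, POLD3, MCM4, CCNE2, DONSON and GINS4 had no entry. The letters TTTCCCGC, TTTCGCGC, TTTGGCGC or TTTGCCGC, which are forms of the E2F motif, were found on either strand in 20 of the 41 promoters (48.8%) and in 908 of all 27305 promoters of the table (3.33%). CCAAT was found on either strand in 25 of 41 (61.0%) and in 35.7% of all promoters. TTTGAA, part of the cell cycle homology region of genes that peak in G2 and M, was found in 1 of 41 (2.44%) and in 15.4% of all. The promoters of MCM6 and E2F1 are printed because they are among those with the most matches of the E2F letters, and those of GINS1, TYMS, CHAF1A, CHAF1B and SLBP because these genes changed with a knock-down, as described further on. Capitals mark the E2F letters and CCAAT, on either strand (ATTGG where the box lies on the other strand), and each sequence reads 5′ to 3′ on the strand of the gene.
MCM6 promoter, chr2:135876394-135876693, minus strand: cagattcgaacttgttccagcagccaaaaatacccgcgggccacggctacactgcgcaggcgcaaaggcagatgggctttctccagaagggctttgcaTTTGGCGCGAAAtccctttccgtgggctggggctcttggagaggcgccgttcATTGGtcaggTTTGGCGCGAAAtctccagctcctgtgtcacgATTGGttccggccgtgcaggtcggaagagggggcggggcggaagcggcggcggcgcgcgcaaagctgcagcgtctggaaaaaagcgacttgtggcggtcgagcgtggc
E2F1 promoter, chr20:33686336-33686635, minus strand: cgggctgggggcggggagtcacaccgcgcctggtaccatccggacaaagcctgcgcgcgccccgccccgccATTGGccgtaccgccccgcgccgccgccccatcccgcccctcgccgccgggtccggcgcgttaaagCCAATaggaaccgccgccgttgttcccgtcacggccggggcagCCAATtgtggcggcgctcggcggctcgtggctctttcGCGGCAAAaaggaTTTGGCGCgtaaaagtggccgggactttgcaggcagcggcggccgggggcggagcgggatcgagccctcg
GINS1 promoter, chr20:25407423-25407722, plus strand: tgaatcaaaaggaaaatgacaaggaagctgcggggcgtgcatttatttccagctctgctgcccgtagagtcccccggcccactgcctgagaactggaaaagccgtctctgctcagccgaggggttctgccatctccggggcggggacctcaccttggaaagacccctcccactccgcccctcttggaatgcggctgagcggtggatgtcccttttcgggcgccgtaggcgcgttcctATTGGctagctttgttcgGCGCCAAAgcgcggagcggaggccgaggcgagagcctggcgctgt
TYMS promoter, chr18:657403-657702, plus strand: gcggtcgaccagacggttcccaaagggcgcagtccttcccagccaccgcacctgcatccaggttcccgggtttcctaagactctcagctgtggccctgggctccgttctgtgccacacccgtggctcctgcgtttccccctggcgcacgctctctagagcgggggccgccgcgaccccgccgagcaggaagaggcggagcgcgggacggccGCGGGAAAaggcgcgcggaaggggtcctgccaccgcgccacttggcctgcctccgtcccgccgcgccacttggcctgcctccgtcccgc
CHAF1A promoter, chr19:4402390-4402689, plus strand: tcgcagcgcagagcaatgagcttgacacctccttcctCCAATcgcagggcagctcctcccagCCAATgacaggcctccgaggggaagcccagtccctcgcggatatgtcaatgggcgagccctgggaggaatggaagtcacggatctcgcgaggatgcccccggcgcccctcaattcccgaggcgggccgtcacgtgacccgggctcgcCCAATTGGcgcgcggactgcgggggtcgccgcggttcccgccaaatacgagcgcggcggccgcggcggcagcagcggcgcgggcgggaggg
CHAF1B promoter, chr21:36385142-36385441, plus strand: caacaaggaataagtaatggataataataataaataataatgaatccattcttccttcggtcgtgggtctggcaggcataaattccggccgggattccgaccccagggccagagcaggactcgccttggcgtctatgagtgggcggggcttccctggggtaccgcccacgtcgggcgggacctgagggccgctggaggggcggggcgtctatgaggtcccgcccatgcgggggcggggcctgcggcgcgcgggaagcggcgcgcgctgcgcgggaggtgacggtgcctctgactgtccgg
SLBP promoter, chr4:1712270-1712569, minus strand: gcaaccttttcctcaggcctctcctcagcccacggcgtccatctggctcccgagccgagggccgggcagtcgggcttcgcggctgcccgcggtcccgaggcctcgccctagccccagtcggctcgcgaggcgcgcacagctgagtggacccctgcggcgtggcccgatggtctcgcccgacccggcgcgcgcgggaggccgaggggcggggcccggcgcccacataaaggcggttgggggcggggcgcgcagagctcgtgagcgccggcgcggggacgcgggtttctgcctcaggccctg
MCM6 held 4 matches of the E2F letters, as 2 overlapping pairs, and 2 of CCAAT. E2F1 held 2 and 3 matches, in that order, and GINS1 held 1 of each. TYMS held 1 match of the E2F letters and none of CCAAT, CHAF1A held 4 of CCAAT and none of the E2F letters, and CHAF1B and SLBP held neither. A match is a description of the letters and does not show that a factor binds there. Other forms of the E2F motif were not searched for, so a promoter without a match may still hold one.

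Levels between genes were compared in control cells as TPM, which divides counts by the annotated exon length. The median of the 49 genes was 95.8 TPM, and 47 of them lay at 27.3 TPM (POLE2, a polymerase epsilon subunit) or more. PCNA, the sliding clamp that holds the polymerases on DNA, was highest at 817 ± 10.2 TPM (SD, n = 3), followed by the helicase subunits MCM7 at 554 ± 5.95, MCM3 at 458 ± 8.34 and MCM4 at 330.0 ± 4.71 TPM. TYMS, which makes thymidylate, had 295 ± 7.57 TPM, and RFC3, a subunit of the clamp loader, had 268 ± 8.40 TPM. The ranges over the 3 control libraries of these 6 genes did not overlap those of their neighbours in the order. UHRF1 at 246 ± 6.54 TPM and RRM1 at 239 ± 7.87 TPM overlapped each other, and over the whole order 27 of the 48 pairs of neighbours overlapped, so most steps in it were not larger than the spread between libraries. MCM8, an MCM family member that acts in recombination repair, and POLA2, the accessory subunit of DNA polymerase alpha, were lowest at 11.1 ± 0.892 and 6.84 ± 0.261 TPM. POLA2 shares 2012 of its 5726 exon bases with the read-through gene AP000944.2 on the same strand, and reads there may have been left uncounted, so its level is uncertain. In each role the highest and the lowest gene were as follows. Licensing had MCM7 and ORC6 (38.5 ± 2.92 TPM). Helicase activation had GINS1 (119 ± 7.13) and GINS3 (31.6 ± 1.04), and polymerases and primase had POLA1 (126 ± 2.10) and POLA2. The clamp and its loader had PCNA and RFC1 (75.6 ± 1.58 TPM), and RPA had RPA2 (176 ± 6.49) and RPA3 (39.2 ± 2.15). Okazaki fragment processing had FEN1 (148 ± 6.28) and LIG1 (47.1 ± 1.89), and nucleotide supply had TYMS and RRM2 (152 ± 2.78). The G1 to S regulators had E2F1 (108 ± 2.61 TPM) and CCNE2 (29.9 ± 1.79), and chromatin supply had UHRF1 and CHAF1B (96.0 ± 1.89). Fork protection and repair had TIPIN (78.7 ± 5.02) and MCM8. CCNE2 shares 1629 of its 4397 exon bases with INTS8 on the other strand. As the strand setting of the counting is not given, the level and fold changes of CCNE2 are uncertain too.

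**Figure D1:**
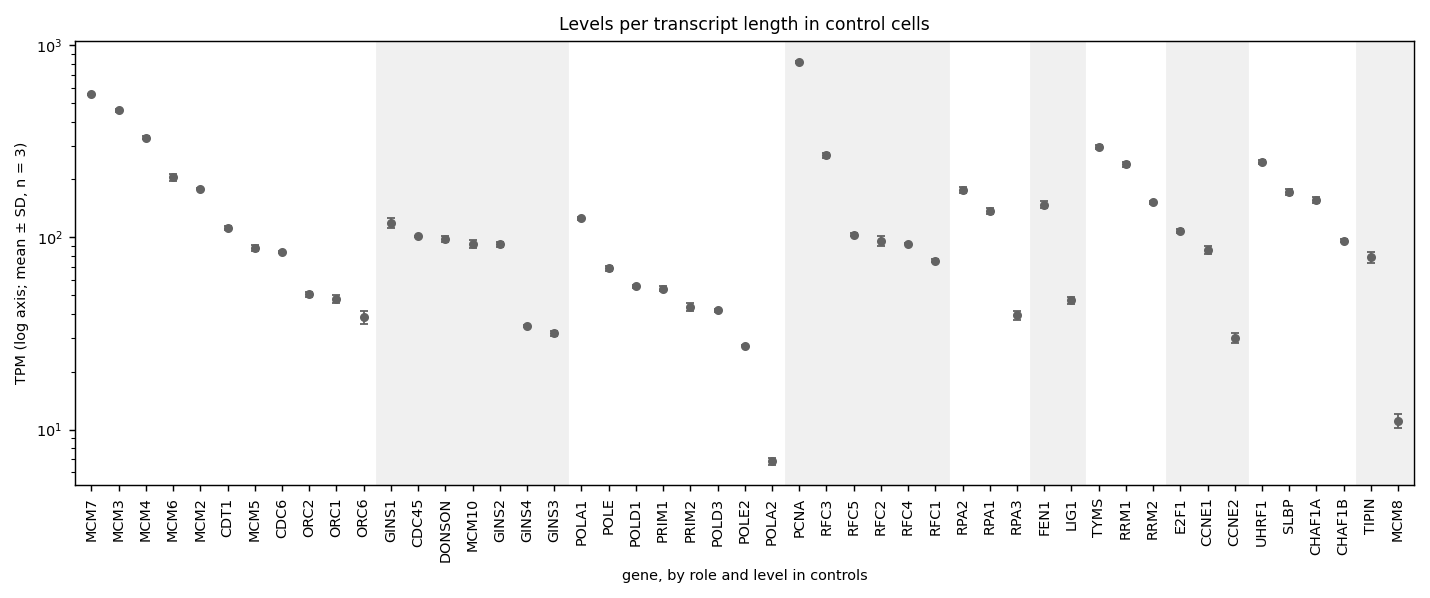
Level of each of the 49 genes in control cells in TPM (log axis, mean ± SD, n = 3 libraries), grouped by role (shading) and sorted by level within each role. PCNA, MCM7, MCM3 and MCM4 were at 330.0 TPM or more, and POLA2 and MCM8 stood below all others.

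In the fit to all 9 libraries the replication genes as a group stayed close to their control level in both knock-downs. In the TTC33 knock-down the median log2 fold change of the 49 genes was 0.03, beside 0.00451 for all genes tested, and the median absolute log2 fold change was 0.143, beside 0.208. All genes tested were not matched to the 49 by level, here or in the comparisons below. A smaller median absolute value therefore does not show that the 49 changed less than other genes of their level. None of the 49 rose past an edgeR adjusted p of 0.05 and 4 fell: DONSON, GINS1, TYMS and SLBP. That is 8.16% of the group, where 11.9% of all genes tested passed, 6.50% higher and 5.44% lower. In 13 of the 49 (26.5%) all TTC33 knock-down libraries lay above all controls, beside 19.0% of all genes, and in 9 (18.4%) all lay below, beside 17.8%. For 38 of the 45 genes that did not pass, the 95% interval of the log2 fold change lay within 0.5 of 0 on both sides.

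In the CCDC97 knock-down the median log2 fold change of the 49 genes was 0.01, beside 0.000825 for all genes, and the median absolute value was 0.083, beside 0.162. None rose and 3 fell: DONSON, CHAF1B and CHAF1A. That is 6.12% of the group, where 4.56% of all genes passed, 2.07% higher and 2.49% lower. In 5 of the 49 (10.2%) all CCDC97 knock-down libraries lay above all controls, beside 14.9% of all genes, and in 11 (22.4%) all lay below, beside 15.0%. The interval lay within 0.5 of 0 for 44 of the 46 genes that did not pass.

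Both counts depended on replicate 1 of the knock-downs. Without replicate 1 of both knock-downs, 19 of the 49 genes were higher and 14 lower in the TTC33 knock-down. Of all genes 48.7% were then called, 24.5% higher and 24.1% lower. Depletion of CCDC97 then left 13 of the 49 genes higher and 16 lower, beside 35.6% of all genes, 18.7% higher and 16.9% lower. With GC content and length corrected for, 10 of the 49 were higher and 6 lower in the TTC33 knock-down, beside 28.7% of all genes, 15.3% higher and 13.4% lower. The same correction left 3 higher and 10 lower in the CCDC97 knock-down, beside 20.5% of all genes, 11.6% higher and 8.84% lower. In the TTC33 knock-down CDC6, CHAF1A, CHAF1B, FEN1, GINS2, MCM5, ORC2, ORC6, RFC1, RFC4, RPA2 and RPA3 passed with this correction and not without it. In the CCDC97 knock-down the same held for E2F1, FEN1, GINS1, MCM4, ORC6, RFC1, RPA2, TIPIN, TYMS and UHRF1. Without replicate 1 of both, and with the correction, a larger share of the 49 than of all genes was called in each knock-down. Whether these shares differed was not tested. The 2 comparisons share their control libraries.

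**Figure D2:**
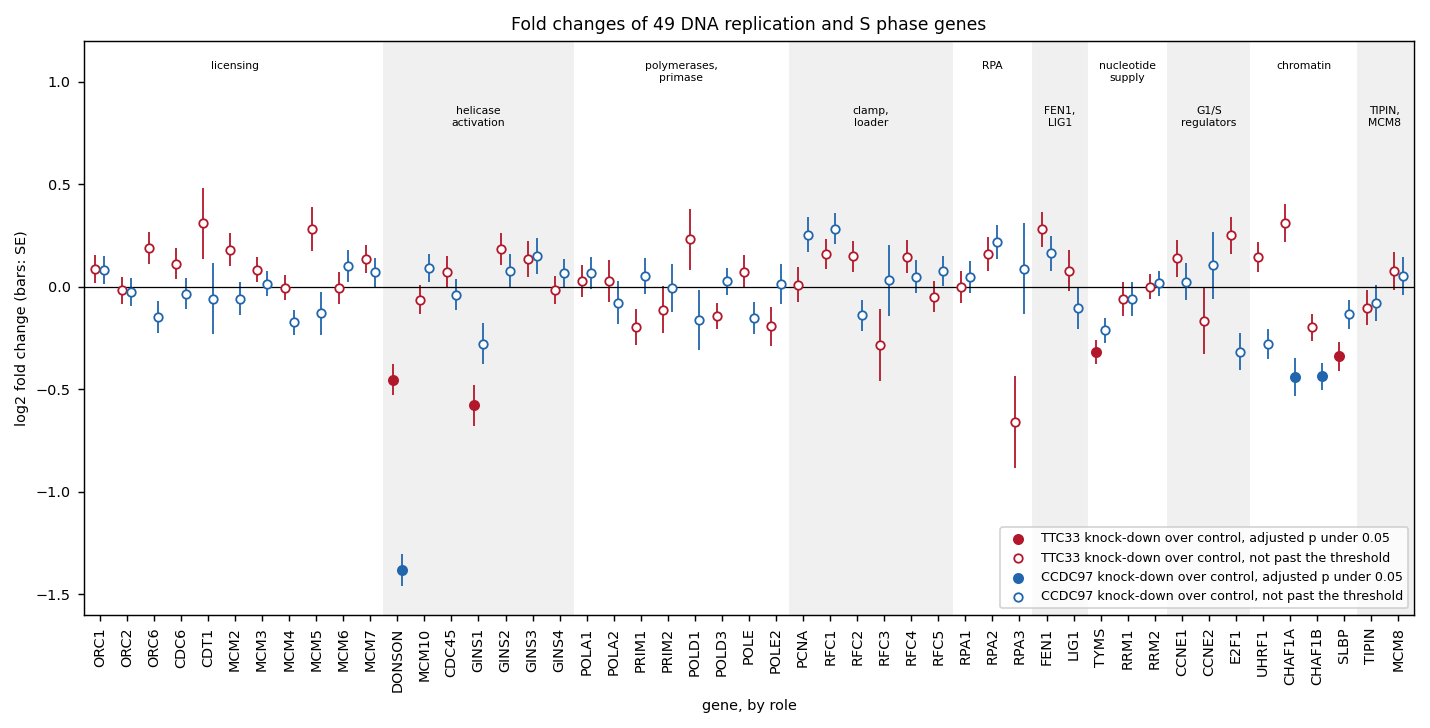
Log2 fold change over control of each of the 49 genes in the TTC33 knock-down (red) and the CCDC97 knock-down (blue), with bars of ± SE from the edgeR fit to 9 libraries and filled points for an adjusted p under 0.05. Most points lie within 0.3 of 0, DONSON is the lowest in the CCDC97 knock-down at -1.38 and the 4 filled red points are DONSON, GINS1, TYMS and SLBP.

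Among the 7 genes of helicase activation, DONSON (ENSG00000159147; GRCh38 chromosome 21, 33559542 to 33588708, minus strand) had the lowest fold change of the 49 in the CCDC97 knock-down. DONSON helps to deliver GINS to the MCM ring when origins fire, and inherited variants that impair it cause microcephaly with short stature. It had 66.2, 62.7 and 64.6 CPM in the TTC33 knock-down, 31.0, 33.7 and 37.0 CPM in the CCDC97 knock-down, and 88.2, 89.8 and 86.8 CPM in controls. The 3 groups did not overlap: every CCDC97 knock-down library lay below every TTC33 knock-down library, and these below every control. DONSON fell to 38.3% of control in the CCDC97 knock-down (log2 fold change -1.38 ± 0.08, SE; edgeR adjusted p = 5.65e-06). It fell to 73.1% in the TTC33 knock-down (-0.45 ± 0.08, edgeR adjusted p = 0.0049). Both calls held in all 20 alternative fits, with log2 fold changes of -1.45 to -1.32 and of -0.47 to -0.37. The separate tables of U counts gave 77.5, 63.2 and 79.3 CPM in the TTC33 knock-down, 42.2, 32.2 and 29.5 CPM in the CCDC97 knock-down, and 112, 112 and 95.3 CPM in controls, the same order of groups. DONSON shares 307 of its 3513 exon bases with SON, an RNA splicing factor gene on the other strand, and 286 with the read-through gene AP000311.1, which had 0 or 1 count in each library. SON itself had 944, 955 and 948 CPM in the TTC33 knock-down, 815, 829 and 880.1 CPM in the CCDC97 knock-down and 1004, 1057 and 1023 CPM in controls (log2 fold change -0.29 ± 0.06 in the CCDC97 knock-down, edgeR adjusted p = 0.0209). As the strand setting of the counting is not given, reads of the shared bases cannot be assigned with certainty.

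GINS1 (ENSG00000101003; chromosome 20, 25407727 to 25452628, plus strand), a subunit of the GINS complex that bridges CDC45 and the MCM ring, fell in the TTC33 knock-down. It had 96.8, 75.9 and 76.2 CPM in the TTC33 knock-down, 94.2, 103 and 109 CPM in the CCDC97 knock-down, and 125, 128 and 118 CPM in controls. All 6 knock-down libraries lay below all controls, and TTC33 knock-down replicate 1 was closer to controls than replicates 2 and 3. The log2 fold change was -0.58 ± 0.10 in the TTC33 knock-down (SE; edgeR adjusted p = 0.00581, called in all 20 alternatives, -0.71 to -0.44). In the CCDC97 knock-down it was -0.28 ± 0.10 and did not pass (adjusted p = 0.14). The other GINS subunits did not pass in any comparison. GINS2 averaged 87.0 ± 5.34 CPM in the TTC33 knock-down, 80.8 ± 7.01 in the CCDC97 knock-down and 76.5 ± 0.797 in controls (SD, n = 3 each). GINS3 averaged 45.3 ± 1.30, 45.8 ± 5.08 and 41.3 ± 1.53 CPM and GINS4 47.7 ± 0.491, 50.4 ± 1.96 and 48.2 ± 1.73 CPM, each in that order of groups. CDC45, the partner of GINS in the active helicase, averaged 77.3 ± 6.65, 71.7 ± 3.10 and 73.6 ± 1.15 CPM, and MCM10, which is needed for the helicase to start, 123 ± 2.07, 137 ± 10.1 and 129 ± 3.92 CPM. GINS1 was thus the sole GINS gene called in either knock-down, but whether it differed from the other subunits was not tested.

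In the fit to all 9 libraries none of the 11 licensing genes passed in either knock-down. The helicase subunits MCM2 to MCM7, which form one ring, passed in neither. MCM7 averaged 682 ± 43.5 CPM in the TTC33 knock-down, 652 ± 34.0 in the CCDC97 knock-down and 621 ± 20.6 in controls, and MCM6 215 ± 10.9, 231 ± 21.1 and 216 ± 7.38 CPM. In the same order MCM3 averaged 453 ± 15.9, 432 ± 15.8 and 427 ± 6.16 CPM and MCM2 254 ± 23.9, 215 ± 14.8 and 224 ± 5.74 CPM (SD, n = 3 each). MCM4 had 567, 589.7 and 602 CPM in the TTC33 knock-down, 507, 508 and 548 CPM in the CCDC97 knock-down, and 583, 588 and 593 CPM in controls, so that all CCDC97 knock-down libraries lay below all controls without passing the test. CDT1, which loads the ring and is destroyed once S phase begins, varied most of these 11: it had 86.9, 129.8 and 138 CPM in the TTC33 knock-down, 114, 81.4 and 79.0 CPM in the CCDC97 knock-down, and 92.0, 93.4 and 101 CPM in controls. In both knock-downs replicate 1 of CDT1 lay on the other side of the controls from replicates 2 and 3. Without TTC33 knock-down replicate 1, CDT1 passed in the TTC33 knock-down (log2 fold change 0.49, edgeR adjusted p = 0.00943). MCM5 (0.40, adjusted p = 0.0021) and MCM2 (0.26, adjusted p = 0.0107) then passed there too. With GC content and length corrected for, CDT1 and MCM2 did not pass. The loader CDC6 averaged 129 ± 3.04, 117 ± 11.2 and 119.6 ± 2.10 CPM in the TTC33 knock-down, the CCDC97 knock-down and controls. Of the origin recognition complex, ORC1 averaged 40.9 ± 0.817, 40.8 ± 1.43 and 38.5 ± 0.838 CPM and ORC2 74.5 ± 3.18, 74.1 ± 3.66 and 75.5 ± 0.542 CPM in the same order. ORC6, the smallest subunit of that complex, had 50.1, 49.9 and 44.9 CPM in the TTC33 knock-down, 39.7, 38.3 and 36.8 CPM in the CCDC97 knock-down, and 44.4, 42.7 and 39.9 CPM in controls, with the TTC33 knock-down above and the CCDC97 knock-down below all controls.

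None of the 8 polymerase and primase genes passed in any of the 3 comparisons in the fit to all 9 libraries. POLE, the catalytic subunit of the leading strand polymerase epsilon, averaged 309 ± 22.8 CPM in the TTC33 knock-down, 264 ± 24.1 in the CCDC97 knock-down and 294 ± 3.01 in controls. POLA1, the catalytic subunit of polymerase alpha, averaged 208 ± 9.73, 214 ± 21.3 and 204 ± 2.61 CPM in the same order. POLD1, the catalytic subunit of the lagging strand polymerase delta, had 65.0, 92.0 and 89.4 CPM in the TTC33 knock-down, 76.6, 55.7 and 55.1 CPM in the CCDC97 knock-down, and 69.3, 67.8 and 72.6 CPM in controls, and again replicate 1 of each knock-down lay apart from the other two. PRIM1, the catalytic primase subunit, averaged 29.4 ± 2.22, 35.0 ± 3.11 and 33.7 ± 0.440 CPM, and its partner PRIM2 47.6 ± 7.69, 51.2 ± 5.68 and 51.5 ± 1.34 CPM. Without TTC33 knock-down replicate 1, POLD1 passed in the TTC33 knock-down against control (log2 fold change 0.37, edgeR adjusted p = 0.0248). PRIM1 (-0.26, adjusted p = 0.0335) and PRIM2 (-0.26, adjusted p = 0.0435) then passed there too. With GC content and length corrected for, POLD1, PRIM1 and PRIM2 did not pass. The accessory subunits averaged 53.1 ± 0.414, 59.7 ± 2.52 and 58.6 ± 0.578 CPM for POLD3, 18.02 ± 0.587, 20.8 ± 2.54 and 20.6 ± 0.544 CPM for POLE2 and 10.2 ± 1.11, 9.47 ± 0.431 and 10.0 ± 0.544 CPM for POLA2.

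Among the clamp and its loader, PCNA had 299, 314 and 314 CPM in the TTC33 knock-down, 317, 412 and 368 CPM in the CCDC97 knock-down, and 306, 303 and 312 CPM in controls. All CCDC97 knock-down libraries lay above the controls, but PCNA, with a fitted level of 119% of control, did not pass. Without CCDC97 knock-down replicate 1 PCNA passed there (log2 fold change 0.35, edgeR adjusted p = 0.0139). With GC content and length corrected for it did not. RFC1, the large subunit of the loader, had 152, 144 and 139 CPM in the TTC33 knock-down, 144, 167 and 163 CPM in the CCDC97 knock-down, and 124, 131 and 134 CPM in controls. Both knock-downs lay above all controls and neither passed. With GC content and length corrected for, RFC1 passed in the TTC33 knock-down (log2 fold change 0.28, edgeR adjusted p = 0.000675). It then passed in the CCDC97 knock-down as well (0.25, edgeR adjusted p = 0.00268). RFC1 was also called in each knock-down without replicate 1 of both. RFC3 spread most, with 210.2, 139.9 and 134 CPM in the TTC33 knock-down, 156, 238 and 208 CPM in the CCDC97 knock-down, and 200.0, 191 and 199 CPM in controls. Without TTC33 knock-down replicate 1, RFC3 passed in the TTC33 knock-down (log2 fold change -0.52, edgeR adjusted p = 0.00701). With GC content and length corrected for it did not. The loader subunits RFC4 and RFC5 averaged 78.6 ± 4.21, 73.5 ± 6.68 and 71.1 ± 1.83 CPM and 83.0 ± 3.40, 90.5 ± 7.27 and 85.8 ± 0.936 CPM in the TTC33 knock-down, the CCDC97 knock-down and controls. Pseudogenes named after PCNA (3), RFC3 (1), RFC5 (1), RPA2 (3), FEN1 (1), TYMS (2) and RRM2 (3) are annotated, and some reads of these genes may align to them.

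RPA, the trimer that coats single-stranded DNA, showed a difference in its smallest subunit between the 2 knock-downs. RPA3 (ENSG00000106399; chromosome 7, 7636518 to 7718607, minus strand) had 28.2, 17.3 and 15.9 CPM in the TTC33 knock-down, 24.8, 43.4 and 35.0 CPM in the CCDC97 knock-down, and 32.1, 33.8 and 31.3 CPM in controls. The TTC33 knock-down lay below all controls, with replicate 1 nearest to them, while the CCDC97 knock-down lay on both sides. Against control RPA3 did not pass in the TTC33 knock-down (log2 fold change -0.66 ± 0.22, SE; edgeR adjusted p = 0.0755) or in the CCDC97 knock-down (0.09 ± 0.22; adjusted p = 0.864). RPA1 and RPA2, the larger subunits, averaged 192 ± 7.90 and 102 ± 2.69 CPM in the TTC33 knock-down, 199 ± 21.1 and 106 ± 11.03 CPM in the CCDC97 knock-down, and 192 ± 3.29 and 90.9 ± 4.48 CPM in controls, and did not pass. RPA3 shares 118 exon bases with UMAD1 on the other strand, which had 12.2, 7.11 and 6.85 CPM in the TTC33 knock-down and 12.9, 12.5 and 12.8 CPM in controls.

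FEN1, the flap endonuclease that trims Okazaki fragments, had 104, 124 and 113 CPM in the TTC33 knock-down, 97.0, 111 and 105 CPM in the CCDC97 knock-down, and 87.6, 96.4 and 96.4 CPM in controls. Every knock-down library lay above every control, and the log2 fold changes of 0.28 ± 0.08 in the TTC33 knock-down (SE; edgeR adjusted p = 0.0536) and 0.16 ± 0.08 in the CCDC97 knock-down (adjusted p = 0.306) did not pass. LIG1, the ligase that seals the fragments, averaged 83.6 ± 11.4 CPM in the TTC33 knock-down, 73.6 ± 6.76 in the CCDC97 knock-down and 79.2 ± 1.41 in controls.

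Of the 3 genes that supply nucleotides, TYMS (ENSG00000176890; chromosome 18, 657604 to 673578, plus strand), thymidylate synthase and the target of fluorouracil, fell in the TTC33 knock-down. It had 144, 149.9 and 155 CPM in the TTC33 knock-down, 158, 159 and 166 CPM in the CCDC97 knock-down, and 184, 189.5 and 186 CPM in controls. The 3 groups did not overlap, with the TTC33 knock-down lowest and the controls highest. The log2 fold change was -0.32 ± 0.06 in the TTC33 knock-down (SE; edgeR adjusted p = 0.00892) and -0.21 ± 0.06 in the CCDC97 knock-down, which did not pass (adjusted p = 0.0693). The call in the TTC33 knock-down was lost in 1 of the 20 alternatives, without control replicate 2 (-0.31, adjusted p = 0.0597). TYMS shares 967 of its 2470 exon bases with ENOSF1 on the other strand, and ENOSF1 fell in the TTC33 knock-down too, with 26.9, 28.95 and 25.2 CPM there and 35.5, 36.4 and 36.4 CPM in controls (log2 fold change -0.42 ± 0.08, edgeR adjusted p = 0.00727). Without the strand setting the 2 falls cannot be told apart for the shared bases. RRM1 and RRM2, the subunits of ribonucleotide reductase, averaged 245 ± 13.9 and 206 ± 5.77 CPM in the TTC33 knock-down, 245 ± 25.8 and 209 ± 10.2 CPM in the CCDC97 knock-down, and 256 ± 6.69 and 206 ± 1.60 CPM in controls.

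None of the 3 regulators of the G1 to S transition passed against control. E2F1 (ENSG00000101412; chromosome 20, 33675683 to 33686404, minus strand), an activating factor whose own promoter, printed above, holds E2F letters, had 72.6, 88.2 and 86.4 CPM in the TTC33 knock-down, 60.2, 51.0 and 55.6 CPM in the CCDC97 knock-down, and 67.1, 70.7 and 69.9 CPM in controls. The TTC33 knock-down lay above and the CCDC97 knock-down below all controls, with log2 fold changes of 0.25 ± 0.09 (SE; edgeR adjusted p = 0.0913) and -0.32 ± 0.09 (adjusted p = 0.0755). With GC content and length corrected for, E2F1 had 0.06 in the TTC33 knock-down (adjusted p = 0.48) and -0.19 in the CCDC97 knock-down, which then passed (edgeR adjusted p = 0.045). The cyclins E, which activate CDK2 at the start of S phase, overlapped the controls in both knock-downs: CCNE1 averaged 61.7 ± 6.43 CPM in the TTC33 knock-down, 57.0 ± 4.01 in the CCDC97 knock-down and 56.0 ± 1.90 in controls, and CCNE2 29.9 ± 6.78, 36.1 ± 7.03 and 33.6 ± 1.39 CPM.

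The 4 genes that supply and mark chromatin behind the fork held 3 of the calls against control. CHAF1A and CHAF1B are subunits of chromatin assembly factor 1, which places new histones H3 and H4 on replicated DNA with the help of PCNA. CHAF1B (ENSG00000159259; chromosome 21, 36385378 to 36419015, plus strand) had 104, 112 and 113 CPM in the TTC33 knock-down, 91.8, 93.4 and 93.0 CPM in the CCDC97 knock-down, and 121, 127 and 129 CPM in controls. Its groups did not overlap, and the CCDC97 knock-down was lowest. CHAF1B, whose printed promoter holds neither CCAAT nor the E2F letters searched for, fell in the CCDC97 knock-down (log2 fold change -0.44 ± 0.06, SE; edgeR adjusted p = 0.00424, called in all 20 alternatives). In the TTC33 knock-down CHAF1B had -0.20 ± 0.06, which did not pass (edgeR adjusted p = 0.0649). CHAF1A (ENSG00000167670; chromosome 19, 4402662 to 4445018, plus strand) had 182, 227 and 231 CPM in the TTC33 knock-down, 137, 118 and 125 CPM in the CCDC97 knock-down, and 172, 175 and 169 CPM in controls. The TTC33 knock-down lay above and the CCDC97 knock-down below all controls. CHAF1A fell in the CCDC97 knock-down (-0.44 ± 0.09, edgeR adjusted p = 0.0261), while 0.31 ± 0.09, its value after TTC33 depletion, did not pass (adjusted p = 0.0527). With GC content and length corrected for, that value was 0.17 and passed (edgeR adjusted p = 0.0134). The CCDC97 call of CHAF1A was lost without any 1 of control replicates 1, 2 and 3 or CCDC97 knock-down replicates 2 and 3 (adjusted p = 0.0877 to 0.122, log2 fold change -0.46 to -0.40). It was also lost with replicate number as a block in the fit (-0.44, edgeR adjusted p = 0.0967). CHAF1A and UBXN6 on the other strand share 20 exon bases. UBXN6 had 45.2, 56.2 and 63.6 CPM in the TTC33 knock-down, 34.7, 28.0 and 28.7 CPM in the CCDC97 knock-down and 42.6, 41.4 and 42.5 CPM in controls.

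SLBP (ENSG00000163950; chromosome 4, 1692800 to 1712555, minus strand), which binds the stem-loop at the end of histone mRNAs, had 71.5, 72.7 and 66.6 CPM in the TTC33 knock-down, 77.0, 80.2 and 85.7 CPM in the CCDC97 knock-down, and 85.6, 91.6 and 89.5 CPM in controls. The TTC33 knock-down lay below both other groups. SLBP fell in the TTC33 knock-down (log2 fold change -0.34 ± 0.07, SE; edgeR adjusted p = 0.0143), while -0.14 ± 0.07, its value after CCDC97 depletion, did not pass (adjusted p = 0.312). The call was lost without any 1 of control replicates 1, 2 and 3 or TTC33 knock-down replicate 3 (adjusted p = 0.0525 to 0.0817, log2 fold change -0.37 to -0.31). A replicate block in the fit lost it too (-0.34, edgeR adjusted p = 0.057). UHRF1 (ENSG00000276043; chromosome 19, 4903080 to 4962154, plus strand), which reads half-methylated DNA behind the fork and recruits the maintenance methyltransferase, had 328, 362 and 383 CPM in the TTC33 knock-down, 279.6, 248 and 272 CPM in the CCDC97 knock-down, and 327, 314 and 329 CPM in controls. All CCDC97 knock-down libraries lay below the controls, with a log2 fold change of -0.28 ± 0.07 that did not pass (edgeR adjusted p = 0.0585). TIPIN, which steadies stalled forks with TIMELESS, averaged 51.6 ± 4.42 CPM in the TTC33 knock-down, 52.4 ± 3.91 in the CCDC97 knock-down and 55.4 ± 2.42 in controls, and MCM8 23.03 ± 0.479, 22.7 ± 2.31 and 21.8 ± 1.35 CPM in the same order; neither passed.

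**Figure D3:**
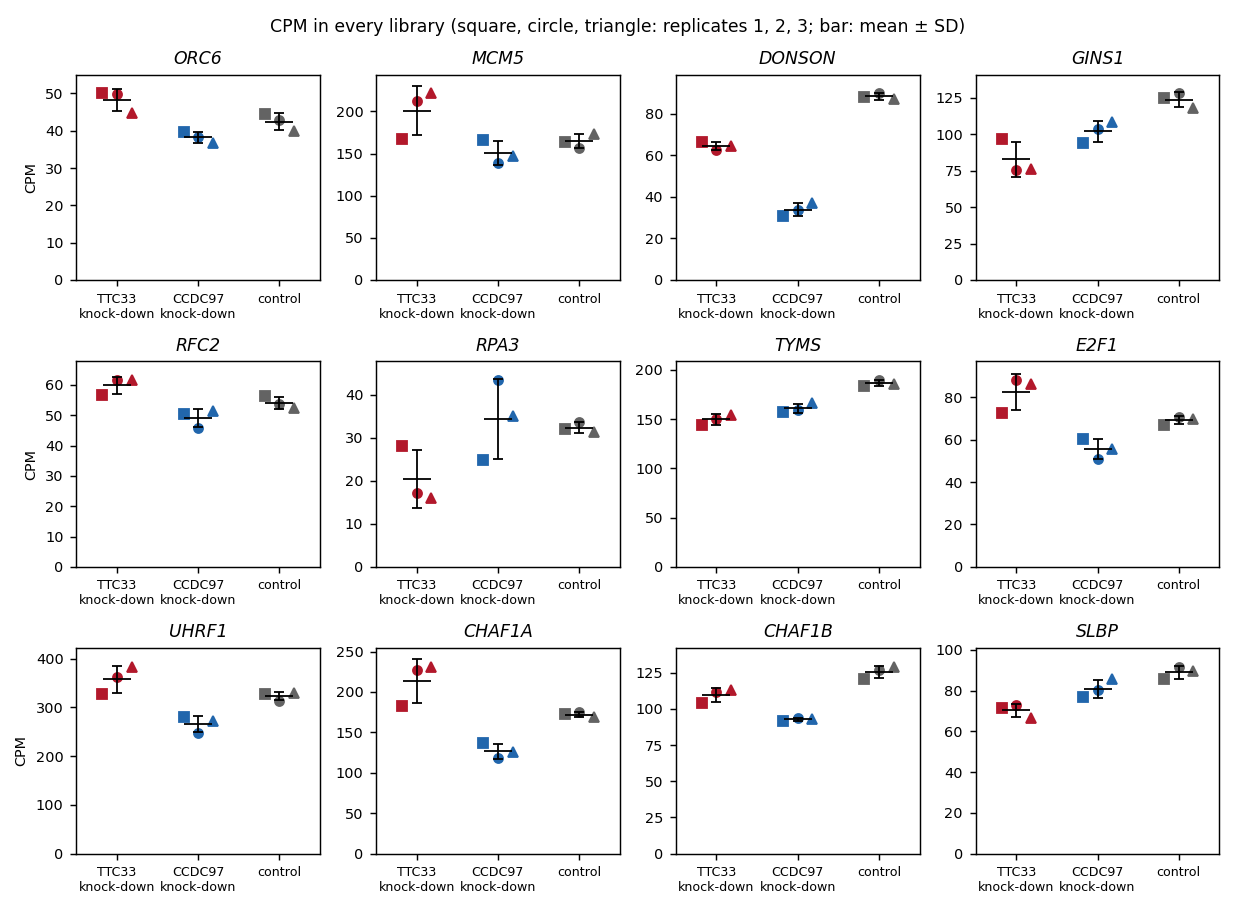
CPM of the 12 genes called in at least 1 of the 3 comparisons, in every library (squares, circles and triangles for replicates 1, 2 and 3; bars for mean ± SD, n = 3), each panel starting at 0. DONSON, TYMS and CHAF1B have all groups apart, with both knock-downs below the controls. CHAF1A, E2F1, ORC6 and RFC2 also have all groups apart, with the TTC33 knock-down above and the CCDC97 knock-down below the controls. RPA3 spreads widest for its level within the knock-downs.

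Set directly against each other, the 2 knock-downs differed at 9 of the 49 genes: 8 were higher in the TTC33 than in the CCDC97 knock-down (DONSON, CHAF1A, UHRF1, E2F1, MCM5, ORC6, RFC2 and CHAF1B) and RPA3 was lower. That is 18.4% of the group, where 21.5% of all genes tested passed, 11.3% higher and 10.2% lower. In 10 genes (20.4%) all TTC33 knock-down libraries lay above all CCDC97 knock-down libraries, beside 15.9% of all genes, and in 7 (14.3%) all lay below, beside 14.5%. The median log2 fold change of the group was 0.01, beside 0.00499 for all genes, and the median absolute value was 0.147, beside 0.247. Without replicate 1 of both knock-downs 16 were higher and 18 lower, beside 55.2% of all genes, 27.5% higher and 27.8% lower. With GC content and length corrected for, 14 were higher and 2 lower, beside 28.4% of all genes, 13.7% higher and 14.8% lower.

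DONSON had the largest difference, with a log2 fold change of 0.93 ± 0.08 in the TTC33 over the CCDC97 knock-down (SE; edgeR adjusted p = 4.03e-05). CHAF1A followed with 0.75 ± 0.09 (edgeR adjusted p = 0.00062). E2F1 had 0.57 ± 0.09 (0.00256) and UHRF1 0.42 ± 0.07 (0.00374). These 4 were called in all 20 alternatives. With GC content and length corrected for, DONSON had 1.06, CHAF1A 0.52, UHRF1 0.25 and E2F1 0.25. MCM5 (ENSG00000100297; chromosome 22, 35400063 to 35425430, plus strand), a helicase subunit, had 167, 213 and 222 CPM in the TTC33 knock-down, 166, 139 and 147 CPM in the CCDC97 knock-down, and 164, 157 and 173 CPM in controls. The knock-downs differed (log2 fold change 0.41 ± 0.11, SE; edgeR adjusted p = 0.0213). After that correction MCM5 had 0.20. The lowest TTC33 knock-down library of MCM5, replicate 1, and the highest CCDC97 knock-down library, also replicate 1, nearly met. ORC6 (ENSG00000091651; chromosome 16, 46689643 to 46698394, plus strand) had a log2 fold change of 0.34 ± 0.08 (edgeR adjusted p = 0.0142) and CHAF1B of 0.24 ± 0.06 (0.0247). The loader subunit RFC2 (ENSG00000049541; chromosome 7, 74231499 to 74254458, minus strand) had 0.29 ± 0.08 (edgeR adjusted p = 0.023). It had 56.7, 61.5 and 61.6 CPM in the TTC33 knock-down, 50.5, 45.7 and 51.3 CPM in the CCDC97 knock-down and 56.2, 53.7 and 52.4 CPM in controls.

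RPA3 was lower in the TTC33 knock-down by a log2 fold change of -0.75 ± 0.22 (SE; edgeR adjusted p = 0.0371), although its groups overlapped. Its call was lost without any 1 of the 3 controls or of replicates 2 and 3 of either knock-down (adjusted p = 0.0578 to 0.166), and the value was -0.54 without CCDC97 knock-down replicate 2. Without replicate 1 of both knock-downs it was -1.25. The calls of MCM5, RFC2 and CHAF1B were lost without replicate 2 or 3 of either knock-down, and that of CHAF1B also without control replicate 2. That of ORC6 was lost without CCDC97 knock-down replicate 2 or 3 or TTC33 knock-down replicate 2. Over these leave-one-out fits adjusted p reached 0.0978 for MCM5, 0.0994 for RFC2, 0.104 for CHAF1B and 0.0644 for ORC6, and the lowest log2 fold changes were 0.33, 0.23, 0.21 and 0.30. In a fit of the 2 knock-downs alone none of these 5 genes passed (edgeR adjusted p = 0.0681 for MCM5, 0.0871 for RFC2, 0.0951 for CHAF1B, 0.0607 for ORC6 and 0.0922 for RPA3). CHAF1B also missed the threshold with no filter on low counts (adjusted p = 0.0586), and RPA3 with U counts added (0.0515). MCM5, RFC2, CHAF1B and RPA3 missed the threshold with a replicate block as well (edgeR adjusted p = 0.0638 to 0.0905).

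The GC content of the 49 genes ran from 36.9% for CCNE2 to 65.0% for POLD1. For each library, the difference of each gene from the control mean in log2 CPM was set against it. Spearman's rho was -0.22, 0.72 and 0.76 for replicates 1 to 3 of the TTC33 knock-down. It was 0.36, -0.48 and -0.52 for replicates 1 to 3 of the CCDC97 knock-down, and -0.30, -0.20 and 0.40 for the controls. The values of replicate 1 of the knock-downs were thus no larger in size than that of control replicate 3, but the differences themselves spread less in controls (SD over the 49 genes of 0.151 to 0.311 in knock-down libraries and of 0.0332 to 0.0426 in controls). Over all genes tested the values were -0.11, 0.56 and 0.57 after TTC33 depletion and 0.32, -0.38 and -0.41 after CCDC97 depletion. Genes of a library share its preparation and depth, so these are descriptions. The 9 genes of at least 55% GC had median differences of 0.02, 0.35 and 0.32 for the TTC33 libraries, against 0.04, -0.24 and -0.20 for the CCDC97 libraries. The 18 genes under 45% GC had 0.04, -0.11 and -0.14 for the TTC33 libraries, against -0.10, 0.11 and 0.05 for the CCDC97 libraries. The median GC content of the 49 genes was 48.1%. CHAF1A (57.6% GC), UHRF1 (54.6%), E2F1 (62.5%), MCM5 (56.6%), RFC2 (53.6%) and CHAF1B (48.7%) lie above it, and RPA3 (45.9%) and GINS1 (41.4%) below. ORC6 (44.4%) also lies below, but it was higher in the TTC33 than in the CCDC97 knock-down, and its log2 fold change of 0.34 became 0.48 with the correction. That of RPA3, -0.75, became -0.65. DONSON (44.3%) had differences of -0.41, -0.49 and -0.45 for the TTC33 libraries, against -1.51, -1.39 and -1.25 for the CCDC97 libraries, all on one side of the controls. The correction removes trends with GC content and with length together, so the part of GC content alone in these differences was not tested.

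**Figure D4:**
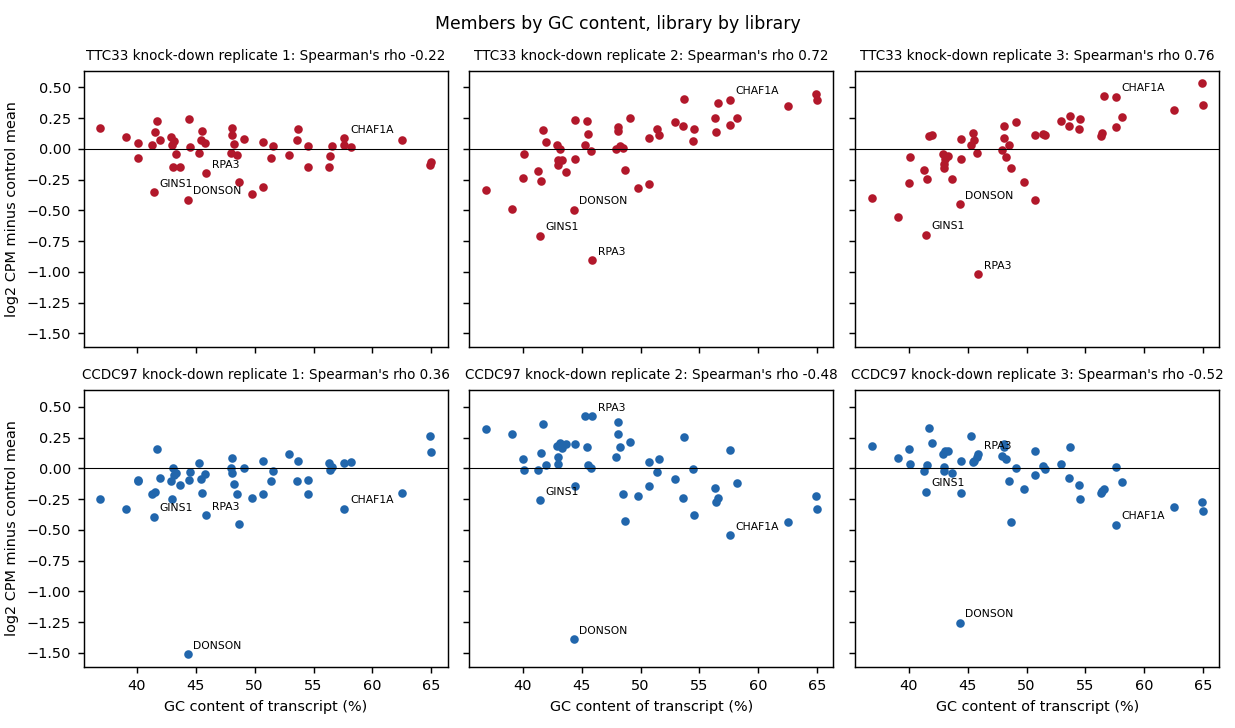
Log2 CPM minus the control mean of each of the 49 genes against the GC content of its annotated transcript (%), one panel per knock-down library, TTC33 knock-down above and CCDC97 knock-down below. In TTC33 knock-down replicates 2 and 3 the points climb with GC content (rho 0.72 and 0.76), in CCDC97 knock-down replicates 2 and 3 they descend (-0.48 and -0.52), replicate 1 of each departs from both, and DONSON lies far below in all CCDC97 knock-down panels.

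Beyond the 49, 111 further genes of replication, its control and the later cell cycle were listed, of which 110 were tested (NUSAP1 was not found by symbol among the genes tested). TOP2A was listed both with the fork genes and with the genes of G2 and M, so a call of it counts in both lists. Beside the 11.9%, 4.56% and 21.5% of all genes given above, 5 of the 110 rose and 8 fell in the TTC33 knock-down, 3 rose and 2 fell in the CCDC97 knock-down, and directly 13 were higher and 19 lower in the TTC33 than in the CCDC97 knock-down. None of the 15 further genes of licensing and origin firing passed against control, while 2 of 18 further fork genes did: POLE4, a small polymerase epsilon subunit, rose in the TTC33 knock-down (log2 fold change 0.63 ± 0.12, SE; edgeR adjusted p = 0.00979). MMS22L, which acts with TONSL at stressed forks, fell there (-0.48 ± 0.13; adjusted p = 0.0339). The POLE4 call was lost without control replicate 1 or 3 (adjusted p up to 0.0567, log2 fold change 0.55 or more) and that of MMS22L without any 1 of the controls or of TTC33 knock-down replicates 2 and 3 (adjusted p up to 0.135, -0.51 to -0.40). MMS22L had -0.27 with GC content and length corrected for. Without replicate 1 of both knock-downs 77, 55 and 85 of the 110 passed in the 3 comparisons, beside 48.7%, 35.6% and 55.2% of all genes.

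Of the 10 further nucleotide genes, 2 fell and 1 rose in the TTC33 knock-down, beside TYMS. DUT, the dUTPase that makes the dUMP that TYMS uses, had 69.6, 64.9 and 61.5 CPM in the TTC33 knock-down, 73.8, 91.8 and 78.0 CPM in the CCDC97 knock-down, and 85.6, 82.8 and 83.8 CPM in controls (log2 fold change -0.36 ± 0.09 in the TTC33 knock-down, SE; edgeR adjusted p = 0.0262). CMPK1, a pyrimidine nucleotide kinase, had 91.8, 52.9 and 52.4 CPM in the TTC33 knock-down and 114, 115 and 113 CPM in controls (-0.79 ± 0.20, edgeR adjusted p = 0.0277), with replicate 1 apart. TK1, thymidine kinase of the salvage route, had 61.2, 77.3 and 75.2 CPM in the TTC33 knock-down and 53.4, 55.2 and 60.4 CPM in controls (0.34 ± 0.10, edgeR adjusted p = 0.0499). Of the 20 alternatives, 15 did not call it, and its log2 fold change was 0.14 after the GC and length correction. The calls of DUT and CMPK1 were lost without any 1 of the controls or of TTC33 knock-down replicates 2 and 3 (adjusted p up to 0.107 and 0.115; log2 fold changes of -0.38 to -0.33 and of -0.80 to -0.66). None of the 10 passed in the CCDC97 knock-down.

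Of the 26 further regulators of G1 and S, 3 rose and 4 fell in the TTC33 knock-down, and 1 rose and 1 fell in the CCDC97 knock-down. CDKN1A, the CDK inhibitor p21, rose in both: it had 48.6, 52.4 and 51.7 CPM in the TTC33 knock-down, 54.5, 48.6 and 44.0 CPM in the CCDC97 knock-down, and 32.7, 31.8 and 36.1 CPM in controls, and every knock-down library lay above every control. Its log2 fold changes were 0.60 ± 0.09 in the TTC33 knock-down (SE; edgeR adjusted p = 0.00275, called in all 20 alternatives) and 0.55 ± 0.09 in the CCDC97 knock-down (adjusted p = 0.0081), the last lost without control replicate 1 or 2 (adjusted p up to 0.0665, log2 fold change 0.51 or more). The CCDC97 call of CDKN1A was also lost with replicate number as a block in the fit (edgeR adjusted p = 0.0539). CCND1, a D-type cyclin of G1, had 104, 109 and 110.0 CPM in the TTC33 knock-down, 152, 132 and 151 CPM in the CCDC97 knock-down, and 148, 149 and 144 CPM in controls, and fell in the TTC33 knock-down (-0.45 ± 0.07, edgeR adjusted p = 0.00329, called in all 20 alternatives). CDKN2C, an inhibitor of CDK4 and CDK6, rose in the TTC33 knock-down (0.34 ± 0.08, edgeR adjusted p = 0.0205), a call lost without any 1 of the controls or of TTC33 knock-down replicates 2 and 3 (adjusted p up to 0.1001, 0.29 to 0.35). It also missed the threshold with GC content and length corrected for (0.20, edgeR adjusted p = 0.0787). E2F2, an activating factor like E2F1, had 46.4, 52.2 and 54.4 CPM in the TTC33 knock-down, 39.6, 33.0 and 31.6 CPM in the CCDC97 knock-down, and 45.5, 45.4 and 47.3 CPM in controls, and fell in the CCDC97 knock-down (-0.41 ± 0.10, edgeR adjusted p = 0.0405). That call of E2F2 was lost without any 1 of the controls, CCDC97 knock-down replicates 2 and 3 or TTC33 knock-down replicate 2 (adjusted p up to 0.158, -0.42 to -0.35).

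Among 8 further genes of chromatin supply, ASF1B, a histone chaperone that hands H3 and H4 to chromatin assembly factor 1, had 74.0, 76.4 and 82.7 CPM in the TTC33 knock-down, 53.2, 47.9 and 49.5 CPM in the CCDC97 knock-down, and 70.5, 70.4 and 72.8 CPM in controls. It was the sole gene of these 8 called against control. It fell in the CCDC97 knock-down (log2 fold change -0.50 ± 0.07, SE; edgeR adjusted p = 0.00402, called in all 20 alternatives). Of the 14 genes of the S phase checkpoint, ATR, its apical kinase, fell in the TTC33 knock-down (-0.36 ± 0.10, edgeR adjusted p = 0.0482), a call lost without any 1 of the controls or of replicates 2 and 3 of either knock-down (adjusted p up to 0.177), and at -0.21 with GC content and length corrected for. Of 20 genes of G2 and M tested, none passed in the TTC33 knock-down and 2 rose in the CCDC97 knock-down: CENPF, a kinetochore protein, with 938, 1096 and 1096 CPM there and 813, 853 and 854 CPM in controls (0.31 ± 0.07, edgeR adjusted p = 0.0331), and KIF20A, a kinesin of cytokinesis, with 139, 160.5 and 145 CPM in the CCDC97 knock-down and 117, 119.8 and 124 CPM in controls (0.30 ± 0.07, edgeR adjusted p = 0.0412). The CENPF and KIF20A calls were lost without any 1 of the controls, CCDC97 knock-down replicates 2 and 3 or TTC33 knock-down replicate 2, and that of KIF20A also without TTC33 knock-down replicate 3 (adjusted p up to 0.172 and 0.198; log2 fold changes of at least 0.27 and 0.23). With no filter on low counts KIF20A did not pass (0.27, edgeR adjusted p = 0.0679).

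In the direct comparison, given as the TTC33 over the CCDC97 knock-down, each list held calls. Of 15 further genes of licensing and origin firing, 2 were higher and 3 lower. DBF4, the activator of the origin kinase CDC7, was lower (log2 fold change -0.44 ± 0.09, SE; edgeR adjusted p = 0.007), while LRWD1, a partner of the origin recognition complex (0.37 ± 0.11, adjusted p = 0.0348), and DBF4B, a second activator of CDC7 (0.30 ± 0.09, adjusted p = 0.0426), were higher. Of 18 further fork genes 4 were higher and 1 lower, and the named ones were higher: the fork protection gene CLSPN (0.33 ± 0.07, edgeR adjusted p = 0.00917), TIMELESS (0.29 ± 0.07, 0.0142), the partner of TIPIN, and POLE4 (0.49 ± 0.12, 0.0176). Of 10 nucleotide genes 4 were higher, among them SAMHD1, which breaks down dNTPs (0.31 ± 0.07, edgeR adjusted p = 0.0142), and TK1 (0.42 ± 0.10, 0.0152). The other 3 were lower, CMPK1 among them (-0.73 ± 0.20, 0.025).

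Of the 26 regulators of G1 and S, 2 were higher and 3 lower. E2F2 was higher (0.55 ± 0.10, edgeR adjusted p = 0.00398), and the cyclins CCND1 (-0.43 ± 0.07, 0.00288) and CCND2 (-0.38 ± 0.07, 0.00454) were lower. Of 8 genes of chromatin supply ASF1B was higher (0.63 ± 0.07, edgeR adjusted p = 0.000405), and 2 were lower: CDCA7, which recruits the remodeller HELLS (-0.46 ± 0.12, 0.0228), and RBBP4, the histone-binding subunit of chromatin assembly factor 1 (-0.25 ± 0.08, 0.0422). Of 14 checkpoint genes 2 were lower, the kinases CHEK1 (-0.58 ± 0.12, edgeR adjusted p = 0.00976) and ATR (-0.44 ± 0.10, 0.0152). Of 20 genes of G2 and M, 6 were lower and none higher. The 3 named are the kinetochore motor CENPE (-0.38 ± 0.09, edgeR adjusted p = 0.0127), CENPF (-0.25 ± 0.07, 0.0307) and the spindle checkpoint kinase BUB1B (-0.23 ± 0.07, 0.0379).

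Of these, ASF1B, E2F2, DBF4, CCND1 and CCND2 were called in all 20 alternatives. In the fit of the 2 knock-downs alone the calls of LRWD1, DBF4B, CLSPN, TIMELESS, SAMHD1, TK1, CMPK1, CDCA7, RBBP4, ATR, CENPE, CENPF and BUB1B were lost. CHEK1 lost its call without CCDC97 knock-down replicate 2 (-0.50, edgeR adjusted p = 0.0504), and TIMELESS without that library or TTC33 knock-down replicate 2 or 3 (adjusted p up to 0.0614, 0.24 to 0.28). POLE4 lost it without CCDC97 knock-down replicate 3 or TTC33 knock-down replicate 2, SAMHD1 without CCDC97 knock-down replicate 2 or TTC33 knock-down replicate 3, and TK1 without CCDC97 knock-down replicate 3 or TTC33 knock-down replicate 2 or 3. CMPK1, CDCA7, ATR and CENPE lost it without replicate 2 or 3 of either knock-down. LRWD1, DBF4B, RBBP4, CENPF and BUB1B lost it without any 1 of those 4 libraries or of the controls. BUB1B also missed the threshold with no filter on low counts, and DBF4B with U counts added.

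With GC content and length corrected for, ASF1B had 0.42, E2F2 0.30, DBF4 -0.22, CHEK1 -0.41 and TIMELESS 0.18, each past the threshold. CMPK1 at -0.42, CDCA7 at -0.29 and ATR at -0.27 passed as well. The calls of LRWD1 (0.01), DBF4B (0.14), TK1 (0.12), RBBP4 (-0.13), CENPF (-0.11) and BUB1B (-0.11) were lost, and CENPE, at 0.0047, was lost with its sign turned.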

How the data were processed

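RNA of 9 libraries was sequenced. The authors deposited whole-number read counts per gene in 2 tables a library, named R12 and U. Trimmomatic 0.39, HISAT2, HTSeq 2.0.1 and GRCh38 are the tools and build named, per the submitters' processing notes. For the HISAT2 version, the annotation release, the strand setting and the meaning of R12 and U, the sources used here give nothing. R12 counts were used, and U counts (6.55 to 11.9% of both) in 1 alternative. Rows that name no gene, 33.4 to 57.9% of a table's total, were left out of library sizes.

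Symbols come from the tables. Coordinates, exon lengths and GC content come from GENCODE 29 (GRCh38), and GC content and length were at hand for 18042 of 18299 tested genes (98.6%). Counts were scaled by TMM and tested with edgeR 4.0.16 (R 4.3.3), as quasi-likelihood fits to all 9 libraries after filterByExpr, in 3 comparisons, with Benjamini-Hochberg adjustment over all tested genes and a threshold of 0.05. The biological coefficient of variation was 0.109 with 6 residual degrees of freedom. TPM uses the union of exons and was compared between genes in controls only. Promoter sequences are from RefSeq.

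The alternatives, 20 a gene, were DESeq2 size factors, upper-quartile factors, no filter, a mean of at least 5 CPM, DESeq2 1.42.0, a fit of the 2 groups alone, a replicate block, R12 plus U counts, a correction for GC content and length (mgcv 1.9.3) with and without the block, leaving out each of the 9 libraries, and leaving out replicate 1 of both knock-downs. The last was chosen after seeing the data. The members and lists were chosen with earlier results of these data known. Named are the members and, of the further lists, up to 3 genes a list and comparison with the smallest adjusted p among those past the threshold, the 2 targets and genes whose exons overlap a member. Single genes of the further lists given above follow that rule.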

Additional observations from a re-analysis of the deposited data

How the results depend on the processing

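Of the 49 genes, DONSON in all 3 comparisons, GINS1 in the TTC33 knock-down, CHAF1B in the CCDC97 knock-down, and CHAF1A, UHRF1 and E2F1 between the knock-downs kept their calls in all 20 alternatives. Signs turned for RPA3 in the CCDC97 knock-down without its replicate 2 (-0.13 to 0.28 over the fits that leave out 1 library, none past the threshold) and for CENPE between the knock-downs, from -0.38 to 0.0047 with GC content and length corrected for. The causes of the shifts listed next were not tested.

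Members called in the TTC33 knock-down (4 in the report) numbered 8 with DESeq2, 16 with the GC and length correction, 9 with no filter and 33 without replicate 1 of both knock-downs, and 2 to 19 with 1 library left out. In the CCDC97 knock-down (3) they numbered 7 with DESeq2, 13 with the GC and length correction, 8 in the fit of the 2 groups, 6 with at least 5 CPM, 6 with no filter and 29 without replicate 1 of both, and 2 to 8 with 1 library left out. Between the knock-downs (9) they numbered 16 with DESeq2, 16 with the GC and length correction, 4 in the fit of the 2 groups, 15 with no filter and 34 without replicate 1 of both, and 4 to 21 with 1 library left out.

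Of all genes, calls in the TTC33 knock-down (2186) numbered 3821 with no filter, 5255 with the GC and length correction and 9129 without replicate 1 of both (552 to 6512 with 1 library left out). In the CCDC97 knock-down (835) they numbered 1471 with DESeq2, 3744 with the GC and length correction, 1339 in the fit of the 2 groups, 1369 with no filter and 6675 without replicate 1 of both (203 to 1981). Between the knock-downs (3943) they numbered 1479 in the fit of the 2 groups and 10362 without replicate 1 of both (1528 to 7767).

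Further pathway genes called in the TTC33 knock-down (13) numbered 39 with the GC and length correction, 25 with no filter and 77 without replicate 1 of both (2 to 53 with 1 library left out). In the CCDC97 knock-down (5) they numbered 12 with DESeq2, 29 with the GC and length correction, 9 in the fit of the 2 groups, 9 with at least 5 CPM and 55 without replicate 1 of both (1 to 13). Between the knock-downs (32) they numbered 7 in the fit of the 2 groups and 85 without replicate 1 of both (8 to 70).

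Deviations of same-numbered libraries from their group means correlated at -0.0304 to 0.0936 between controls and knock-downs. Between the knock-downs they correlated at -0.504, -0.114 and -0.139 for replicates 1, 2 and 3. These values do not settle whether libraries of one number were handled together, and the main fit did not pair them. With a replicate block, 756, 240 and 1857 of all genes, 3, 2 and 5 members and 3, 1 and 11 further genes were called in the TTC33 knock-down, the CCDC97 knock-down and between them. Named calls lost with that block were SLBP, MMS22L, DUT, CMPK1, TK1, CDKN2C and ATR in the TTC33 knock-down. In the CCDC97 knock-down they were CHAF1A, CDKN1A, E2F2, CENPF and KIF20A. Between the knock-downs they were MCM5, RFC2, CHAF1B, RPA3, LRWD1, DBF4B, TIMELESS, CMPK1, CDCA7, RBBP4, ATR, CENPF and BUB1B. With the block and the GC and length correction together, 4887 and 3333 of all genes, 14 and 13 members and 37 and 27 further genes were called in the TTC33 and the CCDC97 knock-down, and 16 members between them.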
